A study of Mus musculus with 12 samples.

Results

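The circadian clock genes of ventral CA1, the output field of the ventral hippocampus, were followed through synaptic tetanization with and without stimulation of the amygdala. The set was chosen by name as Per1, Per2, Per3, Cry1, Cry2, Arntl, Clock, Nr1d1, Nr1d2 and Dbp. These are 10 of the 55471 gene IDs counted, and all 10 were among the 19492 genes with enough reads to be tested. The tissue came from acute horizontal brain slices of male C57BL/6J mice, wild-type and aged 5 to 7 weeks, and 12 RNA sequencing libraries fell into 4 groups of 3. In the Control group the electrodes were placed and stimulation was basal. The STET group was given strong tetanization, a protocol for late long-term potentiation made of 3 trains of 100 pulses at 100 Hz. The groups STET_S100 and STET_S200 had the same tetanization together with stimulation of the basolateral amygdala (BLA) at 100 Hz or 200 Hz, although the label of the latter also gives a rate of 100 Hz in brackets. Every slice, Control included, had rested for at least 3 h in the chamber and was frozen 30 min after stimulation, each library pooled 6 slices, and each mouse gave 1 slice to each of the 4 groups, so the groups share mice. The hour of the day at which tissue was taken is not given in the sources used here.

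The circadian clock is a loop of transcription and translation that runs in nearly every cell, neurons of the hippocampus included. CLOCK and BMAL1, the product of Arntl, bind E-box elements together and switch on the Per and Cry genes, whose proteins later return to the nucleus and block CLOCK and BMAL1. In a second loop the nuclear receptors REV-ERB alpha and beta, from Nr1d1 and Nr1d2, silence Arntl, and DBP, whose gene is a direct E-box target, drives further genes through D-box elements. Per1 and, in many tissues, Per2 can also be switched on within minutes by signals that activate the transcription factor CREB, which is why Per1 is counted among the activity-induced genes as well.

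These regulatory letters can be read in the promoters. RefSeq windows of the GRCm38.p6 assembly, from 250 bases before to 50 bases after an annotated start, were found for 9 of the 10 genes, in 13 windows. The 250 bases before the start are shown for Per1 and Cry2, the 2 genes with a window whose 3 STET_S200 libraries all lay below every Control library. Capitals mark an E-box (CACGTG), an E'-box (CACGTT, here as AACGTG on the other strand), a CRE half-site (TGACG, or CGTCA on the other strand) or a D-box (TTATGTAA or TTATGCAA), and positions count back from the base just before the start as -1.
Per1, upstream start, plus strand, chr11:69098699-69098948: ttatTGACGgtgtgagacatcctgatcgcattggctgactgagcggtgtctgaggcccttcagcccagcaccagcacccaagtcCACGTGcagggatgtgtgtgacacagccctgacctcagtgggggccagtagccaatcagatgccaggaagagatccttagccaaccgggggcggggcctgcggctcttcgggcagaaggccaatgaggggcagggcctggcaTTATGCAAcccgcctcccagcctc
Per1, downstream start, plus strand, chr11:69099902-69100151: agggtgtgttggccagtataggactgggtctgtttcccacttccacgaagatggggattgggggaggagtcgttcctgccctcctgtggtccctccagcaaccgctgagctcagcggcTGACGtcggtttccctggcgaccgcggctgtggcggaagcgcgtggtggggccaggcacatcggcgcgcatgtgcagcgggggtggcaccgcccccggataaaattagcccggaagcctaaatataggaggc
Cry2, minus strand, chr2:92434070-92434319: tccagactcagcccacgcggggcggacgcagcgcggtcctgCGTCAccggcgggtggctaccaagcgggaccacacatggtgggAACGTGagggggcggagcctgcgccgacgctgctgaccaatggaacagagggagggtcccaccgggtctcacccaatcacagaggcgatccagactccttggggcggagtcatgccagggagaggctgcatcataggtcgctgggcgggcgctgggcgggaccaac
The upstream Per1 window held a CRE half-site at -246, an E-box at -166 and a D-box at -24, and the downstream Per1 window held a CRE half-site at -132. The Cry2 window held a CRE half-site at -209 and an E'-box at -166. Among the windows not shown, that of Cry1 held an E'-box at -79, an E-box at -60 and a CRE half-site at -8, that of Per3 held D-boxes at -205 and -158, that of Nr1d1 held an E'-box at -28, and 1 of the Arntl windows held the letters TAGGTCA, a core of the element bound by REV-ERB, at 31 bases after the start. The complete CRE, TGACGTCA, was in none of the 13 windows, and none of the searched letters was in the windows of Clock, Nr1d2 or Dbp. Both strands were searched, and the half-site is part of the complete CRE. Of 32851 windows of the same length over all genes, 7.15% held the E-box, 4.68% the E'-box, 20.8% the CRE half-site, 1.79% the complete CRE, 1.66% a D-box and 6.45% a REV-ERB core (TAGGTCA or TGGGTCA). A match describes these letters and not a bound site.

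All 10 clock genes were expressed in every library. On the scale of library-scaled counts per kilobase of exon (CPM per kb), which allows levels of different genes to be set side by side, the order of the means over the 12 libraries was Nr1d1 at 39.9, Per1 at 29.0, Cry2 at 23.2, Nr1d2 at 18.8, Dbp at 16.2, Per2 at 13.1, Clock at 7.64, Cry1 at 6.23, Arntl at 4.19 and Per3 at 2.19. The ranges over libraries of neighbours in this order overlapped for Per1 and Cry2, for Nr1d2 and Dbp, and for Dbp and Per2, and for no other neighbours. Nr1d1 was thus the most abundant of the set per length, and the activator Arntl was among the least abundant. Reads per library ran from 599 for Cry1 to 8590 for Per1. The coefficient of variation (SD over mean) across the 12 libraries was 2.68% for Nr1d2 and 2.96% for Clock, and it was 11.2% for Dbp and 11.7% for Cry1.

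The libraries held 36.3 to 52.8 M counted reads. All 8 markers of CA1 neurons were detected, with a summed level of 1630 to 1920 CPM over the libraries. Markers of choroid plexus, a tissue that lies against the ventral hippocampus, summed to 218 to 1330 CPM in Control, 287 to 2479 CPM in STET, 25.9 to 3120 CPM in STET_S100 and 11.8 to 56.8 CPM in STET_S200, and all 10 of these markers were lower in the 3 STET_S200 libraries than in any Control library. Microglia markers summed to 291 to 312 CPM in Control and 247 to 290 CPM in STET_S200, also without overlap, whereas the sums for 7 other marker lists (CA1 and pyramidal neurons, other hippocampal fields, interneurons, astrocytes, oligodendrocytes and endothelium) overlapped Control in every stimulated group. The fat-cell carrier Fabp4 was taken alone from a list of 9 markers of tissue outside the brain. It ranged from 7.08 to 8.46 CPM over STET 3, Control 3, STET_S200 2, STET_S200 3 and STET_S100 1. The 7 other libraries did not exceed 0.275 CPM. The sum of the list overlapped Control in every stimulated group. Of its other genes, Alb reached 8.47 and Car3 6.88 CPM, while Adipoq reached 1.15 and Umod 0.718 CPM. The 7 libraries low in Fabp4 were also fitted alone as an alternative. In such bulk tissue a lower level in each cell and fewer cells of a type that expresses the gene cannot be told apart.

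No clock gene passed an adjusted p of 0.05 in any of the 7 comparisons between groups, and 0% of all genes tested did so (edgeR quasi-likelihood F test, Benjamini-Hochberg adjustment over 19492 genes). DESeq2 and limma-voom likewise called 0 of the 10. The 3 stimulated groups share the Control libraries, so their comparisons with Control are not independent of each other. Against Control, the log2 fold changes of the 10 genes lay between -0.08 and 0.03 in STET, between -0.18 and 0.16 in STET_S100 and between -0.23 and 0.05 in STET_S200. Their medians were -0.01, -0.04 and -0.08, beside a median of 0.00 over all genes tested in each.

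**Figure D1:**
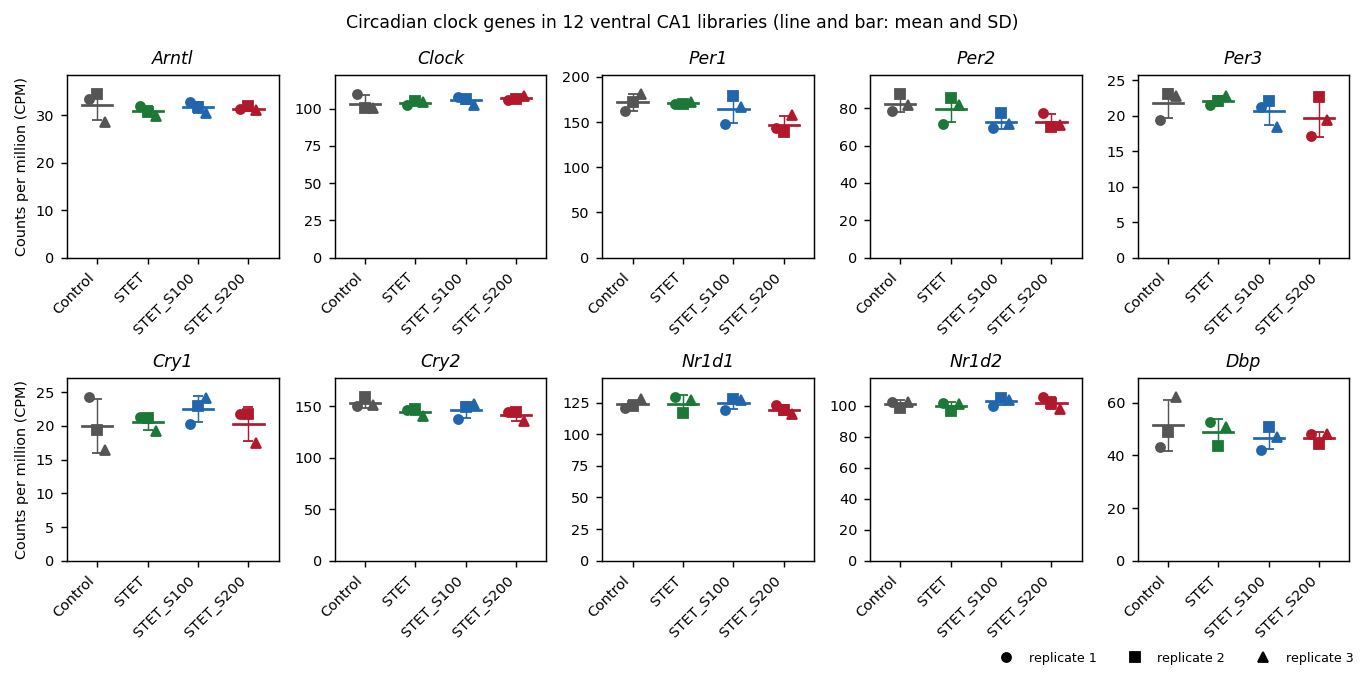
Library-scaled counts (CPM, linear axis from 0) of the 10 clock genes in the 4 groups. Each point is 1 library, its shape gives the replicate number, the horizontal line is the group mean and the bar is 1 SD over the 3 libraries. Per1 at 139 to 158 CPM in STET_S200 lies below its Control and STET points, while Clock, Nr1d1 and Nr1d2 lie nearly level.

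The activators came first in the loop. Arntl was counted at 33.5, 34.5 and 28.6 CPM in Control 1 to 3, at 32.0, 30.8 and 29.8 in STET, at 32.7, 31.8 and 30.4 in STET_S100, and at 31.3, 31.9 and 31.0 in STET_S200. The groups overlapped, and Control spanned both the highest and the lowest value, the lowest in Control 3, one of the libraries with Fabp4. Of the other libraries with Fabp4, STET_S100 1 and STET_S200 2 were the highest of their groups for Arntl. STET 3 and STET_S200 3 were the lowest of theirs. The log2 fold change of Arntl from Control was -0.06 ± 0.06 (SE of the fit) in STET, -0.02 ± 0.06 in STET_S100 and -0.03 ± 0.06 in STET_S200. Clock, whose product acetylates histones as well as binding DNA, was counted at 109.6, 100.1 and 100.0 CPM in Control, 102.4, 105.0 and 104.4 in STET, 107.8, 106.1 and 102.6 in STET_S100, and 106.0, 106.1 and 108.4 in STET_S200. Its log2 fold changes from Control were 0.01 ± 0.04, 0.03 ± 0.04 and 0.05 ± 0.04 in the same order, and the highest Control library exceeded every stimulated library. The 95% interval for STET_S200 ran from -0.04 to 0.13. All 3 STET_S200 values of Clock lay above all 3 STET values, with a log2 difference of 0.04 ± 0.04.

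Per1, a repressor of the loop that also responds to CREB, had the largest difference of the set. Its level was 162, 172 and 181 CPM in Control 1 to 3 and 170, 170 and 172 CPM in STET, so that STET lay inside the Control range. In STET_S100 it was 148, 178 and 167 CPM, with STET_S100 1 below every Control library and the other 2 within the Control range. In STET_S200 it was 143, 139 and 158 CPM, below every Control and every STET library. The mean of Control was 172 ± 9.30 CPM and that of STET was 171 ± 1.53 CPM, while STET_S100 averaged 165 ± 15.3 CPM and STET_S200 147 ± 9.89 CPM (SD, 3 libraries each). The log2 fold change from Control was -0.01 ± 0.06 in STET (95% interval -0.14 to 0.12) and -0.06 ± 0.06 in STET_S100 (-0.20 to 0.07). In STET_S200 it was -0.23 ± 0.06 (-0.36 to -0.09), or 0.853 times the Control level, with an unadjusted p of 0.00256 and an adjusted p of 0.786 by edgeR. STET_S200 also stood at 0.859 times the STET level, a log2 difference of -0.22 ± 0.06 with an edgeR p of 0.0034 and an adjusted p of 0.938. Against STET_S100 the log2 difference was -0.17 ± 0.06, with an edgeR p of 0.019 and an adjusted p of 0.956, and the libraries overlapped. Without 1 library at a time this last value ran from -0.24 to -0.11.

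The Per1 difference between STET_S200 and Control was -0.22 with the choroid plexus score as a covariate. It was -0.22 in the 7 libraries low in Fabp4, where STET_S200 is represented by STET_S200 1 alone. The score, the mean log2 CPM of the 10 markers, was 1.96, 4.32 and 2.00 in Control and 1.99, 4.94 and 2.83 in STET. In STET_S200 it was -0.49, -1.13 and 0.30, below both groups without overlap. Fits with this score therefore cannot separate choroid plexus content from stimulation in STET_S200 against Control or STET. Leaving out 1 library at a time gave -0.28 to -0.19 for the Per1 difference from Control. The test depended on the low-count filter: with genes kept at any read, edgeR gave Per1 an adjusted p of 0.00144 against Control, 0.00178 against STET and 0.0446 against STET_S100. Against Control, adjusted p ran from 0.317 to 0.999 over the other alternatives. The STET and STET_S100 differences from Control, close to 0, turned to 0.03 and 0.05 in the 7 libraries low in Fabp4.

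Beside Per1 are set 3 other activity-induced genes of the same libraries, picked by name, and the list they come from follows below. Arc, which encodes a synaptic protein that regulates AMPA receptor traffic, stood at 94.1, 115 and 80.5 CPM in Control, 297, 285 and 191 in STET, 170, 399 and 241 in STET_S100, and 277, 193 and 215 in STET_S200. Every stimulated library exceeded every Control library for Arc, and its log2 fold changes from Control were 1.42 ± 0.33, 1.48 ± 0.33 and 1.24 ± 0.33. For Fos, a subunit of the AP-1 transcription factor, Control lay at 151 to 168 CPM and the stimulated libraries at 171 to 320 CPM, with log2 fold changes of 0.74 ± 0.23, 0.67 ± 0.23 and 0.66 ± 0.23. Npas4, a neuronal transcription factor induced by calcium entry, lay at 54.7 to 75.3 CPM in Control and 113 to 326 CPM in the stimulated libraries, with log2 fold changes of 1.72 ± 0.41, 1.69 ± 0.41 and 1.35 ± 0.41. None of the 3 passed the adjusted p threshold in edgeR (adjusted p from 0.786 to 1). In STET_S100 2, which had the highest Arc, Fos and Npas4 of all libraries, Per1 at 178 CPM was inside the Control range. This was also the highest Per1 value of the stimulated libraries. Within STET_S100, Per1 at 148, 178 and 167 CPM ranked the libraries as these 3 genes did. In STET and in STET_S200 the order of Per1 differed from theirs.

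**Figure D2:**
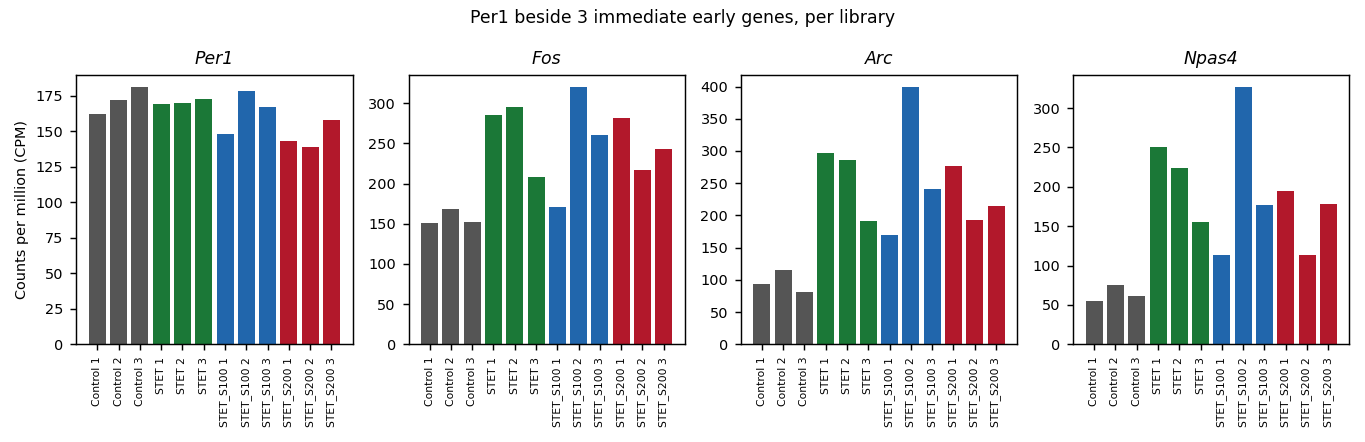
Library-scaled counts (CPM, linear axes from 0) of Per1, Fos, Arc and Npas4, 1 bar per library, coloured by group. Fos, Arc and Npas4 are above all Control bars in all 9 stimulated libraries, whereas the Per1 bars of STET and 2 of the 3 of STET_S100 are at the height of Control. The Per1 bars of STET_S200, at 139 to 158 CPM, and of STET_S100 1, at 148 CPM, are below every Control bar.

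Per2, the closest relative of Per1 and a repressor with CRY, was counted at 78.5, 87.6 and 81.6 CPM in Control and 71.8, 85.7 and 82.0 CPM in STET. It was counted at 69.3, 77.5 and 71.8 CPM in STET_S100 and 77.4, 69.8 and 71.0 CPM in STET_S200. All 6 libraries with amygdala stimulation lay below all 3 Control libraries, a pooling for which no share over all genes was computed. STET lay on both sides of that gap, with STET 1 at the level of the amygdala groups. The log2 fold change from Control was -0.05 ± 0.07 in STET, -0.18 ± 0.07 in STET_S100 (edgeR p of 0.0157, adjusted p of 0.902) and -0.18 ± 0.07 in STET_S200 (edgeR p of 0.0148, adjusted p of 0.809). Against STET the difference was -0.13 ± 0.07 in both amygdala groups (edgeR p of 0.0637 and 0.0599, adjusted p of 1 and 0.938). In both groups this was -0.20 without STET 1 and -0.08 without STET 2, and for STET_S200 it was -0.04 with the choroid plexus score as a covariate and -0.03 in the 7 libraries low in Fabp4. STET_S200 and STET_S100 differed by -0.00 ± 0.07, with a 95% interval of -0.14 to 0.14. With the choroid plexus score as a covariate, the STET_S200 difference from Control was -0.10, with an edgeR p of 0.212 and an adjusted p of 0.998. The score does not overlap between these groups, so that fit cannot separate choroid plexus content from stimulation. In the 7 libraries low in Fabp4 the difference was also -0.10. The adjusted p of Per2 in STET_S200 against Control was 0.0619 by edgeR with no filter on low counts, and at least 0.479 in the other alternatives.

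Per3, the third period gene, was the lowest of the set per kilobase and stood at 19.4, 23.05 and 22.8 CPM in Control, 21.5, 22.02 and 22.8 in STET, 21.3, 22.1 and 18.4 in STET_S100, and 17.2, 22.6 and 19.5 in STET_S200. The groups overlapped, and its log2 fold changes from Control were 0.03 ± 0.10, -0.07 ± 0.10 and -0.13 ± 0.10. The Per3 value in STET_S200 was -0.04 without STET_S200 1 and -0.24 without STET_S200 2, and it was -0.02 with the choroid plexus score as a covariate and -0.30 in the 7 libraries low in Fabp4. In STET_S100 it was 0.0007 without STET_S100 3. Per1 and Per2, and not Per3, were separated from Control in STET_S200.

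The cryptochromes, which hold CLOCK and BMAL1 inactive, showed different spreads. Cry2 stood at 150, 159 and 152 CPM in Control, 146, 147 and 141 in STET, 138, 150 and 153 in STET_S100, and 144, 145 and 135 in STET_S200. Both STET and STET_S200 lay below every Control library, and STET_S100 overlapped Control. The log2 fold change of Cry2 from Control was -0.08 ± 0.04 in STET (edgeR p of 0.0773, adjusted p of 1) and -0.06 ± 0.04 in STET_S100. In STET_S200 it was -0.12 ± 0.04 (95% interval -0.21 to -0.02), with an edgeR p of 0.0177 and an adjusted p of 0.817. Cry1 was the most variable gene of the set, with 24.2, 19.3 and 16.4 CPM in Control alone, 21.3, 21.1 and 19.2 in STET, 20.3, 22.9 and 24.1 in STET_S100, and 21.7, 21.7 and 17.4 in STET_S200. Control held both the highest and the lowest Cry1 library, and the log2 fold changes were 0.03 ± 0.13, 0.16 ± 0.13 and 0.02 ± 0.13. The 95% interval in STET_S100 ran from -0.12 to 0.45. The STET_S100 value was 0.04 without Control 3, one of the libraries with Fabp4, and 0.33 without Control 1. Without Control 3 the STET and STET_S200 values were -0.09 and -0.11. Of the other libraries with Fabp4, STET 3, STET_S100 1 and STET_S200 3 were the lowest of their groups for Cry1, and STET_S200 2 was not.

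The REV-ERB genes of the second loop varied little. Nr1d1 was counted at 120.9, 122.1 and 127.8 CPM in Control, 129.1, 116.7 and 126.6 in STET, 119.2, 127.7 and 126.7 in STET_S100, and 122.7, 118.9 and 115.6 in STET_S200. Its log2 fold changes from Control were 0.01 ± 0.04, 0.01 ± 0.04 and -0.05 ± 0.04, and the groups overlapped. Nr1d2 was counted at 102.6, 98.9 and 102.7 CPM in Control, 102.1, 97.0 and 101.1 in STET, 99.9, 105.0 and 103.9 in STET_S100, and 105.5, 101.9 and 97.8 in STET_S200. Its log2 fold changes were -0.02 ± 0.04, 0.02 ± 0.04 and 0.00 ± 0.04, with 95% intervals that stayed between -0.10 and 0.11 on the log2 scale. For the output factor Dbp, Control 3 at 62.1 CPM was the highest of all libraries, beside 43.2 and 49.0 CPM in the other two Control libraries. Its remaining values were 52.8, 43.7 and 50.8 CPM in STET, 42.2, 50.8 and 46.9 in STET_S100, and 48.1, 44.2 and 48.1 in STET_S200. The log2 fold changes of Dbp were -0.06 ± 0.13, -0.14 ± 0.13 and -0.13 ± 0.13. Without Control 3, one of the libraries with Fabp4, they were 0.09, 0.02 and 0.02. The other libraries with Fabp4 had Dbp at 50.8 (STET 3), 42.2 (STET_S100 1), 44.2 (STET_S200 2) and 48.1 CPM (STET_S200 3). A part of the tissue with Fabp4 in these values was not tested.

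**Figure D3:**
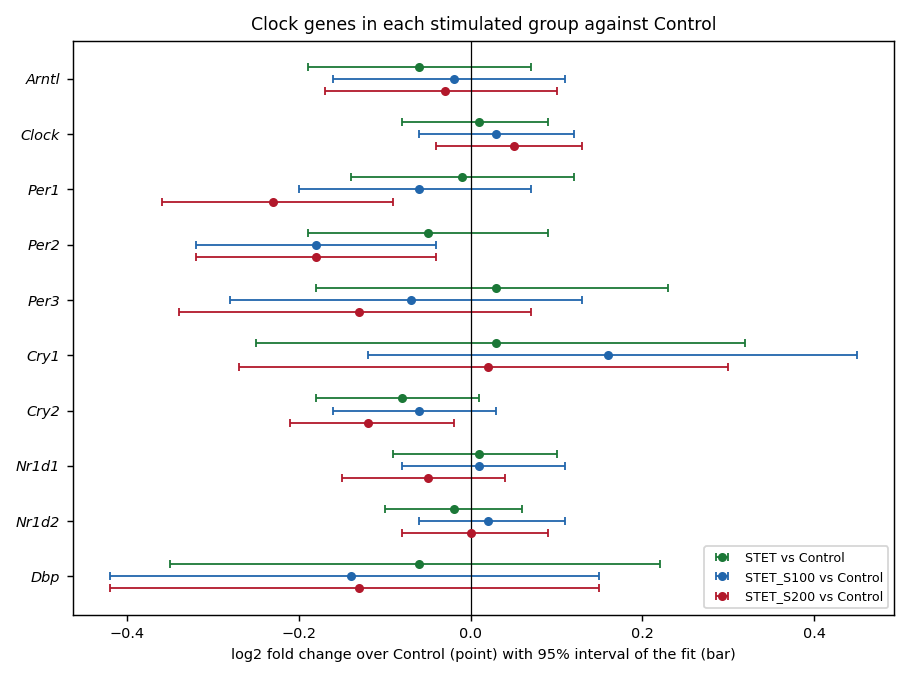
Log2 fold change over Control (horizontal axis) of each clock gene in STET, STET_S100 and STET_S200, with the 95% interval of the edgeR fit as the bar. Most intervals include 0, and those that do not are Per1 in STET_S200 (-0.36 to -0.09), Per2 in STET_S100 and STET_S200 (both -0.32 to -0.04) and Cry2 in STET_S200 (-0.21 to -0.02), none with an adjusted p under 0.05.

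Counted over the set, an unadjusted edgeR p under 0.05 was reached by 0 of the 10 genes in STET against Control, where 3.5% of all genes tested reached it, and by 1 in STET_S100, Per2, where 5.16% did. It was reached by 3 in STET_S200, Per1, Per2 and Cry2, where 5.92% did, and by 2 for the mean of the stimulated groups, Per2 and Cry2, where 5.47% did. Between stimulated groups it was reached by 0 in STET_S100 against STET (3.16% of all genes), by 1 in STET_S200 against STET (4.56%) and by 1 in STET_S200 against STET_S100 (5.2%), which was Per1 in both. For the mean of the stimulated groups, the log2 fold change was -0.10 ± 0.05 for Per1 (edgeR adjusted p of 0.936), -0.14 ± 0.05 for Per2 (0.86) and -0.09 ± 0.04 for Cry2 (0.889).

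Counted by libraries, all 3 STET libraries lay below all 3 Control libraries for 1 of the 10 genes, Cry2, where 4.2% of all genes tested did so, and above for 0, where 4.69% did. For STET_S100 the genes below were 1, Per2, with 4.93% of all genes, and those above 0, with 5.19%. For STET_S200 the genes below were 3, Per1, Per2 and Cry2, with 5.28% of all genes, and those above 0, with 5.73%. STET_S200 lay below STET for 1 gene, Per1, with 5.76% of all genes, and above it for 1, Clock, with 6.22%. No clock gene in STET_S100 lay below STET without overlap (4.87% of all genes), nor in STET_S200 below STET_S100 (4.77%). The 3 of 10 genes below Control in STET_S200 were above the background share, and the 0 of 10 above Control were not, over genes that share regulators. The STET_S200 libraries were also low in choroid plexus and microglia markers. Cry2 in STET_S200 against Control stood at -0.14 with the choroid plexus score, which does not overlap between these groups, as a covariate. It stood at -0.10 in the 7 libraries low in Fabp4. The part of the microglia markers in the STET_S200 differences was not tested.

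Parts of some genes are shared with a neighbour on the opposite strand, and whether the counting used the strand is not given in the sources used here. In the GENCODE M21 annotation, 18.01% of the exon bases of Dbp overlap Sphk2, 8.55% of those of Nr1d1 overlap Thra, 4.67% of those of Cry2 overlap D930015M05Rik and 0.44% of those of Arntl overlap Gm45355. Reads from the shared bases cannot be told apart between the 2 genes if strand was not used.

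The other transcription factors of the clock were measured from a list of 12 genes, all of them tested and 0 called in either direction by edgeR, DESeq2 or limma-voom. An unadjusted p under 0.05 was reached by 1 in each stimulated group against Control, Tef in STET and Hlf in the other two, beside 3.5%, 5.16% and 5.92% of all genes. Hlf, which encodes a factor of the same family as DBP, was at 141, 125 and 130 CPM in Control, 130, 121 and 113 in STET, 116, 112 and 113 in STET_S100, and 125, 103 and 120 in STET_S200. Both amygdala groups lay below Control for Hlf, STET_S200 1 by little (124.8 against 124.9 CPM), with log2 fold changes of -0.21 ± 0.07 in STET_S100 (edgeR p of 0.00817, adjusted p of 0.902) and -0.19 ± 0.07 in STET_S200 (edgeR p of 0.017, adjusted p of 0.817). Tef, the third member of that family, lay at 327 to 337 CPM in Control and 301 to 325 CPM in the 9 stimulated libraries. The nearest libraries were apart by little (324.7 against 327.1 CPM), and no share over all genes was computed for the 9 together. Its log2 fold changes were -0.08 ± 0.04, -0.08 ± 0.04 and -0.07 ± 0.04. Bhlhe41, which encodes the repressor DEC2, had log2 fold changes of -0.10 ± 0.05 in both amygdala groups. Ciart, another repressor of CLOCK and BMAL1, had 0.25 ± 0.13 in STET and differed by -0.35 ± 0.13 between STET_S200 and STET (edgeR p of 0.0175, adjusted p of 0.938). With no filter on low counts edgeR called that difference of Ciart, and Hlf in both amygdala groups against Control.

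Enzymes that set the lifetime of the PER and CRY proteins made up a list of 16 kinases, phosphatases, ubiquitin ligases and their partners, all tested and 0 called by any of the 3 tools. An unadjusted p under 0.05 was reached by 1, 2 and 2 of the 16 in STET, STET_S100 and STET_S200 against Control, beside 3.5%, 5.16% and 5.92% of all genes. Btrc, a ubiquitin ligase subunit that recognises phosphorylated PER, had a log2 fold change of -0.11 ± 0.04 in STET and -0.09 ± 0.04 in STET_S100. Usp2, a deubiquitinating enzyme under clock control, had -0.13 ± 0.06 in STET_S100 and -0.16 ± 0.06 in STET_S200. Prkaa1, a catalytic subunit of the energy sensor AMPK, which phosphorylates CRY, had 0.12 ± 0.06 and 0.17 ± 0.06 in the same groups.

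The list of 15 clock-controlled output genes, all tested, likewise had 0 calls by the 3 tools, with unadjusted p under 0.05 for 2, 2 and 4 genes in STET, STET_S100 and STET_S200, beside 3.5%, 5.16% and 5.92% of all genes. It shares Hlf, Tef, Usp2, Ciart and Bhlhe41 with the lists above. Klf15, a transcription factor of metabolic genes, was at 28.1, 30.9 and 33.8 CPM in Control and 26.3, 24.0 and 27.1 CPM in STET_S200, below every Control library, with a log2 fold change of -0.26 ± 0.08 (edgeR p of 0.0057, adjusted p of 0.786), and edgeR called it with no filter on low counts. Tsc22d3, which encodes the glucocorticoid-induced leucine zipper protein, had -0.36 ± 0.14 in STET_S200, also without overlap. Its Control values were 74.5, 74.4 and 96.2 CPM, the highest in Control 3, one of the libraries with Fabp4. The other libraries with Fabp4 had it at 67.5 (STET 3), 79.9 (STET_S100 1), 56.8 (STET_S200 2) and 72.1 CPM (STET_S200 3). Cdkn1a, which encodes the cell cycle inhibitor p21, had 0.17 ± 0.06 in STET.

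The route from calcium and cyclic AMP through CREB to Per1 was covered by 17 genes, all tested and 0 called by the 3 tools, with unadjusted p under 0.05 for 0, 0 and 1 gene in STET, STET_S100 and STET_S200, beside 3.5%, 5.16% and 5.92% of all genes. That gene was Crtc1, a coactivator of CREB, with a log2 fold change of -0.10 ± 0.04 in STET_S200. Mapk3, which encodes the kinase ERK1, had -0.15 ± 0.07 and Sik1, an inhibitory kinase of this coactivator family and itself a CREB target, had -0.22 ± 0.11 in STET_S200. Per1 also answers to glucocorticoids, and of 16 glucocorticoid-responsive genes, all tested, 0 were called by the 3 tools. An unadjusted p under 0.05 was reached by 2, 3 and 5 of them, beside the same 3.5%, 5.16% and 5.92% of all genes. The lists are not independent. Tsc22d3, Cdkn1a and Klf9 are also among the output genes, so Cdkn1a in STET and Tsc22d3 in STET_S200 are counted in both. Dusp1, and Sik1 of the CREB route, are also among the immediate early genes below. In STET_S200 against Control, 9 of the 16 were positive and 7 negative, with a median of 0.01. The smallest p in STET_S200 belonged to Hif3a with -0.63 ± 0.19 and Mertk with -0.23 ± 0.07. The Control values of Hif3a were 4.84, 4.77 and 7.38 CPM, the highest in Control 3, one of the libraries with Fabp4. The other libraries with Fabp4 had it at 4.71 (STET 3), 4.90 (STET_S100 1), 3.66 (STET_S200 2) and 3.88 CPM (STET_S200 3). Dusp1, a phosphatase gene that is also induced by activity, had 0.43 ± 0.14 in STET and 0.38 ± 0.14 in STET_S100. Sgk1 had 0.25 ± 0.12 in STET and 0.31 ± 0.12 in STET_S100. Its libraries in both groups lay above every Control library, in STET by little (109.9 against 109.5 CPM). In the list of 20 rapid immediate early genes, all tested, edgeR called 0, and DESeq2 called 1 in STET against Control, Gadd45g, and 1 in STET_S100, Arc. For the mean of the stimulated groups DESeq2 called 5, Arc, Btg2, Gadd45g, Ier2 and Npas4. In edgeR 10, 10 and 7 of them reached an unadjusted p under 0.05, beside 3.5%, 5.16% and 5.92% of all genes, and their median log2 fold changes were 0.44, 0.41 and 0.30. The medians of the lists of other clock factors, enzymes, output genes, the CREB route and glucocorticoid-responsive genes lay between -0.07 and 0.03 in the same comparisons. Within the immediate early list, 16 of the 20 genes were positive and 4 negative against Control in each stimulated group. In STET_S200 against STET 19 of the 20 were negative, with a median of -0.13, where 51% of all genes were positive. Against STET_S100 17 of the 20 were negative, with a median of -0.09, where 50.7% of all genes were positive. In both, 0 of the 20 had an unadjusted edgeR p under 0.05.

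Covariation between the clock genes was measured over the 12 libraries after the group means were removed. Among 45 pairs, 24 coefficients were positive and 21 negative, from -0.66 to 0.85 with a median of 0.02, and 0 passed an adjusted p of 0.05 by an exact two-sided permutation within groups. The unadjusted p was under 0.05 for 4 pairs. The 2 REV-ERB genes, Nr1d1 and Nr1d2, had the highest coefficient (Pearson r = 0.85 and Spearman rho = 0.87, with exact permutation p of 0.00694 and 0.00386, adjusted 0.231 and 0.156), and r was 0.77 without the 2 libraries farthest from the median of Nr1d1. Nr1d1 and Dbp, both E-box targets, had r = 0.77 and rho = 0.84, with exact permutation p of 0.0116 and 0.00694 (adjusted 0.231 and 0.156), and r = 0.69 without 2 libraries. Per1 and Dbp had r = 0.70 and rho = 0.66, with exact permutation p of 0.0154 and 0.0386 (adjusted 0.231 and 0.434), and r = 0.65 without 2 libraries. Clock and Nr1d1 had r = -0.54 and rho = -0.66, with exact permutation p of 0.0471 and 0.027 (adjusted 0.53 and 0.405), and r = -0.52 without 2 libraries. Per1 and Per2, both induced through CREB in other settings, had r = 0.36 and rho = 0.41, with exact permutation p of 0.251 and 0.196, and r = 0.09 without 2 libraries. The lowest coefficient, between Arntl and Dbp, was -0.66 (rho = -0.48, exact permutation p of 0.211 and 0.262), and it was -0.05 without Control 3. The libraries share mice between groups, and the points share depth and base composition. The GC content of the longest transcript is 61.6% for Dbp and 59.4% for Per1, above 97.5% and 94.0% of the genes tested, and 40.9% for Clock, above 10.1%. It is 56.8% for Nr1d1, above 86.1% of the genes tested, and 41.8% for Nr1d2, above 13.2%. The part of base composition in the coefficients between clock genes was not tested. As a description, over the 12 libraries with group means left in, the correlation of each clock gene with the mean difference between the most GC-rich and most GC-poor genes of a library lay between -0.42 (Arntl) and 0.35 (Clock and Nr1d2), with 0.08 for Per1, 0.16 for Nr1d1 and 0.31 for Dbp.

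**Figure D4:**
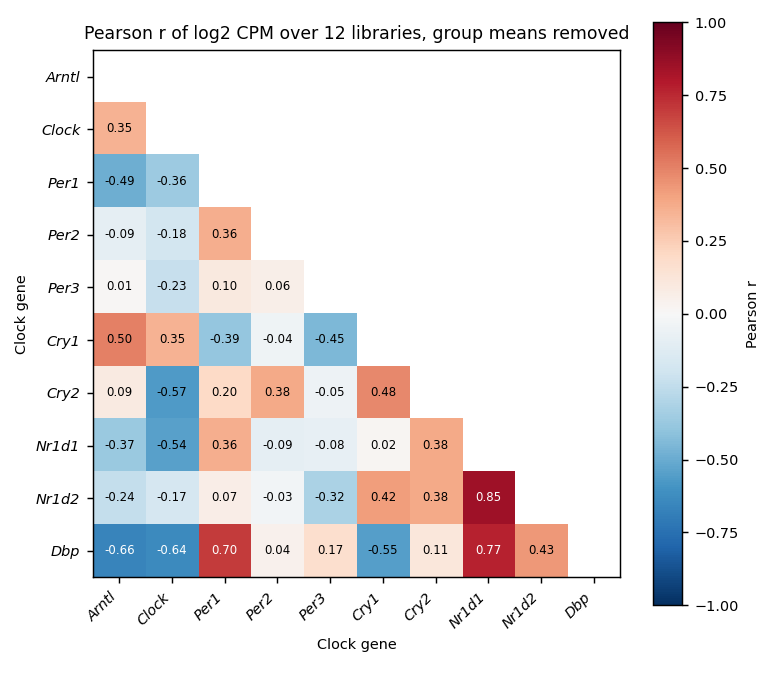
Pearson r of log2 CPM between each pair of the 10 clock genes over 12 libraries with group means removed, in colour from -1 (blue) to 1 (red) and as numbers. The pairs Nr1d1 with Nr1d2 (0.85), Nr1d1 with Dbp (0.77) and Per1 with Dbp (0.70) are the strongest positive ones, and Arntl with Dbp (-0.66) is the strongest negative one.

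The genes whose levels followed those of a clock gene most closely were sought among 10149 genes over the 12 libraries, with the group means left in. For Per1 they were Tbccd1 (r = 0.85), Srrm2 (0.83), Ephb1 (0.83), Ncstn (0.82) and Ift140 (0.80). For Arntl they were Zfp106 (r = 0.86), Abca5 (0.86), Golga4 (0.85), Dcaf12 (0.84) and Ippk (0.84). For Dbp they were Cdk10 (r = 0.90), Plxnd1 (0.86), Cntrob (0.86), Notch3 (0.86) and Mta1 (0.85). The clock genes themselves were left out of this search. None of the genes found is in the lists of other clock factors, CREB or immediate early genes used here. The coefficients are the highest of many and are given as a description.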

How the data were processed

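Strand-specific libraries of poly(A) RNA from microdissected ventral CA1 were read as pairs of 150 bp. The authors deposited raw read counts per Ensembl gene ID, whole numbers with no scaling, in 1 table of 12 columns. Per the submitters' processing notes, the tools were HTSeq 0.11.2, STAR 2.7.1a, Trimmomatic 0.39, limma and R 4.0.2. The sources used here do not name the genome build, annotation or strand setting. Of 55471 IDs, 55144 (99.4%) were matched to GENCODE M21, which gave exon lengths.

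TMM factors (trimmed mean of M values) scaled the counts, which were tested with edgeR 4.0.16 (glmQLFit with robust dispersion, R 4.3.3) in 1 fit of the 12 libraries with 1 coefficient per group, after filterByExpr (min.count 10, min.total.count 15), which left 19492 genes. Adjusted p-values are Benjamini-Hochberg values within each of 7 comparisons. The SE is the absolute log2 fold change divided by the square root of F, and intervals are at 95%. CPM uses the TMM-adjusted total, and correlations used log2 CPM with a prior count of 2. The script was tested on simulated data. Between libraries of 1 group, chi-square divided by its degrees of freedom was 5.18 to 21.5, above counting noise, and the common coefficient of biological variation was 8.25%. The labels describe pooled slices, not separate cultures or litters per library, so p-values measure the spread between these libraries.

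Whether libraries with the same number came from the same mice is not in the labels. In the data, deviations from the group means of equal-numbered Control and STET libraries correlated at 0.127, 0.231 and 0.221, and those of the 6 other pairs of these 2 groups at -0.193 to -0.009; no other 2 groups had all 3 equal-numbered pairs above 0.1.

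All 10 clock genes are named. From each other list up to 4 genes per comparison with the smallest p are named. For likeness, the 5 genes with the highest r to Per1, Arntl or Dbp with mean log2 CPM from 3 up are named. Predicted genes and the clock genes themselves were left out of that search. Arc, Fos and Npas4 stand beside Per1. Members, lists and the settings for tissue content were chosen with earlier results of these data known. Alternatives were RLE and upper quartile scaling, no filter, a mean count from 10 up, limma-voom (limma 3.58.1), DESeq2 1.42.0, no robust dispersion, only the compared groups, a replicate block, a choroid plexus score as covariate, the 7 libraries with Fabp4 at most 1 CPM, and leaving out each library.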

Additional observations from a re-analysis of the deposited data

How the results depend on the processing

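In 121 of 124 repeats of the 7 comparisons under another setting, 0 clock genes were called, and in 3 it was 1 gene, Per1. These 3 were the fits with no filter on low counts for STET_S200 against Control, STET and STET_S100, each with 1 clock gene called, where edgeR called 69, 34 and 98 genes in all; the cause was not tested. Without that filter edgeR also called Hlf and Mertk in both amygdala groups against Control, Klf15 and Hif3a in STET_S200 against Control, and Ciart in STET_S200 against STET. DESeq2 gave Per1 in STET_S200 against Control an adjusted p of 0.317 and called 4 genes in all. The directions of 19 of the 40 log2 fold changes held in every setting, those of Per1 and Cry2 in STET_S200 and of Per2 in both amygdala groups against Control among them. In 52 of 695 repeats the sign turned, to values no larger than 0.11 in size. Log2 fold changes of the other sign in the 7 libraries with Fabp4 at most 1 CPM were 0.03 for Per1 in STET against Control, -0.04 for Cry1 in STET against Control, -0.01 for Clock in STET against Control, 0.07 for Dbp in STET against Control, 0.05 for Per1 in STET_S100 against Control, -0.01 for Clock in STET_S100 against Control, 0.08 for Dbp in STET_S100 against Control, -0.01 for Cry1 in STET_S200 against Control, 0.01 for Nr1d1 in STET_S200 against Control, 0.06 for Dbp in STET_S200 against Control, 0.02 for Per1 in STET_S100 against STET and 0.05 for Per2 in STET_S200 against STET_S100. Log2 fold changes of the other sign with the choroid plexus score as a covariate were -0.08 for Cry1 in STET_S200 against Control, 0.02 for Arntl in STET_S200 against Control, -0.03 for Nr1d2 in STET_S200 against Control and 0.10 for Per2 in STET_S200 against STET_S100. Per2 in STET_S200 against STET_S100, at -0.0026, was 0.0017 with upper quartile scaling and 0.0002 with the replicate block. Without 1 library at a time, ranges that crossed 0 in STET against Control were Per1 -0.05 to 0.03, Per2 -0.10 to 0.02, Per3 -0.05 to 0.07, Cry1 -0.09 to 0.20, Clock -0.01 to 0.05, Nr1d1 -0.02 to 0.05, Nr1d2 -0.04 to 0.0024 and Dbp -0.18 to 0.09. Without 1 library at a time, ranges that crossed 0 in STET_S100 against Control were Per1 -0.12 to 0.01, Per3 -0.15 to 0.0007, Arntl -0.10 to 0.03, Nr1d1 -0.01 to 0.04 and Dbp -0.25 to 0.02. Without 1 library at a time, ranges that crossed 0 in STET_S200 against Control were Cry1 -0.11 to 0.19, Arntl -0.11 to 0.01, Nr1d2 -0.02 to 0.03 and Dbp -0.25 to 0.02. Without 1 library at a time, ranges that crossed 0 in STET_S100 against STET were Per1 -0.12 to 0.02. Without 1 library at a time, ranges that crossed 0 in STET_S200 against STET_S100 were Per2 -0.05 to 0.04. The cause of these turns was not tested. Outside STET and Control, whose equal numbers deviated together, equal replicate numbers did not correlate above 0.1 in every pair of any 2 groups. Over all groups the 18 pairs of equal number correlated at -0.28 to 0.33, with a median of 0.05, and 7 of 12 libraries correlated best with their own number. With the replicate block 0 clock genes were called in each comparison, STET against Control included, where Cry2 was -0.08, and Per1 in STET_S200 against Control was -0.23. With 3 libraries per group, the 95% interval in STET against Control ran from -0.08 to 0.09 for Clock and from -0.25 to 0.32 for Cry1. Differences inside such intervals were not resolved, and the intervals are not limits of detection. Larger differences could also miss the adjusted threshold. Per1 in STET_S200 against Control, at -0.23, had an edgeR adjusted p of 0.786.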
